A study of Mus musculus with 18 samples.

Results

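RNA of 6 red cell genes was followed in mouse dorsal root ganglia (DRG), out of 48529 genes with linked transcripts. They are the adult alpha globins Hba-a1 and Hba-a2, the adult beta globins Hbb-bs and Hbb-bt, the erythroid haem enzyme Alas2 and the red cell anion exchanger Slc4a1. They were chosen by symbol, with earlier results of these data known. Of the 6, 6 passed the filter on low counts that left 15774 genes for testing. The MM group held 9 mice given 5TGM1-GFP cells, a GFP-tagged mouse myeloma (malignant plasma cell) line, into the femur, and the SHAM group held 9 mice given vehicle by the same route. Every mouse was a male of the strain C57BL/KaLwRijHsd aged 5 to 7 weeks, the syngeneic host strain of this myeloma line. Whole ganglia of lumbar levels L2, L3 and L4 on the injected side were taken on day 24 after surgery and snap frozen. The labels record neither perfusion nor removal of blood, and they name no batch, day or pairing.

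Each haemoglobin molecule pairs alpha chains with beta chains around haem, and red cell precursors in the bone marrow make both chains in balance. Alas2 starts haem synthesis in these precursors, and Slc4a1 (band 3) exchanges chloride for bicarbonate across the red cell membrane. Mature mouse red cells have no nucleus and circulating reticulocytes still carry globin mRNA, so RNA of a tissue taken with its blood can hold globin transcripts. In bulk tissue, fewer cells of a type and less RNA per cell cannot be told apart.

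The globin genes come in near-identical pairs, and the stretch around the point where the coding sequences of each pair part is shown because it bounds how well reads can be assigned. In GENCODE M21 transcripts, Hba-a1 and Hba-a2 both have 429 coding bases and differ at 1 of them, C381T, with Hba-a1 given first and positions counted from the A of the start codon. Hbb-bs and Hbb-bt both have 444 coding bases and differ at 1 of them, C417T, with Hbb-bs given first. Coding positions 351 to 410 of the alpha pair and 385 to 444 of the beta pair follow, with the differing base in capitals.
Hba-a1: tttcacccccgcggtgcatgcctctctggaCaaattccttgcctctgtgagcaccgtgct
Hba-a2: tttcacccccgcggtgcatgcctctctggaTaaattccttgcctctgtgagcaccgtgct
Hbb-bs: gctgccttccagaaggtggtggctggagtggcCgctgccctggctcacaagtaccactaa
Hbb-bt: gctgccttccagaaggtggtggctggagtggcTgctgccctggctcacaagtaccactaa

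Outside the coding part the pairs differ more. Of all stretches of 31 bases in the Hba-a2 mRNA, 91.0% also occurred in the main Hba-a1 mRNA, and 71.3% of those of Hba-a1 occurred in Hba-a2. Hbb-bs shared 66.9% of its stretches with Hbb-bt, and Hbb-bt shared 59.4% with Hbb-bs. The main alpha and beta mRNAs shared 0 such stretches. Reads of one alpha gene can therefore be credited to the other by the estimate, and likewise within the beta pair, while alpha and beta reads stay apart at this length. The level of a single paralog is uncertain for that reason, and the sum of a pair does not depend on that split.

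The 250 bases before the transcription start are shown for the globins and Alas2 as background on these genes. They are RefSeq sequences on the GRCm38.p6 build, found for 5 of 6 genes. Capitals mark 4 short motifs searched on either strand. The motif GATAA is the core bound by GATA factors such as the erythroid regulator GATA1. The motif CCACCC is bound by Klf-type factors such as KLF1. A common element of promoters in general is CCAAT. Another is TATAA, which helps to place the start of transcription. Motif copies that overlap were all counted. Hba-a1 lies at chr11:32283422-32283671 on the plus strand, Hbb-bs at chr7:103827929-103828178 and Hbb-bt at chr7:103813924-103814173 on the minus strand, and Alas2 at chrX:150547167-150547416 on the plus strand.
Hba-a1: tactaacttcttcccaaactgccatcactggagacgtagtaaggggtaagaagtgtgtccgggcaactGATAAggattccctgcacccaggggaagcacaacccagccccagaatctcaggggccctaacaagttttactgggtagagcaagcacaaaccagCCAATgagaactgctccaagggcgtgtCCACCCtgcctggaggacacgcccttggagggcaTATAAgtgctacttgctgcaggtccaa
Hbb-bs: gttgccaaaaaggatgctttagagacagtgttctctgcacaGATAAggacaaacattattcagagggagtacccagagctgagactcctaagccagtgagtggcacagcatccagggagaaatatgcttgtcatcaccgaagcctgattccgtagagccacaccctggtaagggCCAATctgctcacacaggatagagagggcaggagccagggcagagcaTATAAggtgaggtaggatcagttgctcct
Hbb-bt: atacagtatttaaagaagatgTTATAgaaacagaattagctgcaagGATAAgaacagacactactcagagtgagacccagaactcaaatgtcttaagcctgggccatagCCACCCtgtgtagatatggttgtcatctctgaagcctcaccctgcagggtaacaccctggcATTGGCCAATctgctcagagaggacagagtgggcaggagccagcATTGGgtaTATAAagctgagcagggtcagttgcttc
Alas2: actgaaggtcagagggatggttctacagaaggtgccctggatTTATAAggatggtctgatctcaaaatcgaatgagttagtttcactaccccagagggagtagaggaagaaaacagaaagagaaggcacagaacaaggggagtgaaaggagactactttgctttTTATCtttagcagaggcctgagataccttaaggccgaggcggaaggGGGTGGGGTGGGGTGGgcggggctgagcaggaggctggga

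The Hba-a2 window (chr11:32296242-32296491, plus strand) is the Hba-a1 window shifted by 3 bases, with 247 of 247 aligned bases identical. GATAA or its reverse complement was found in 5 of 5 windows, against 22.6% of 32851 promoter windows of the same length. In the Alas2 window it stands on the opposite strand, where the printed letters are its reverse complement. The motif CCACCC was found in Hba-a1, Hba-a2, Hbb-bt and, as 3 overlapping reverse copies, in Alas2, against 28.1% of windows. Only exact copies were searched. Hbb-bs had none but reads ccacaccc shortly before its CCAAT, so this search does not show that it lacks such a site. CCAAT was found in the 4 globin windows, against 33.8%, and TATAA in all 5, against 22.8%. In the globin windows a TATAA began between 27 and 30 bases before the start, whereas in Alas2 it began 207 bases before. The motifs are letter matches and say nothing of binding in these ganglia.

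Across the 18 libraries, reads credited to genes ran from 19014161 to 21538262. Levels are given as CPM, read counts divided by the library size after TMM scaling. In MM5, MM8 and MM9 the 9 plasma and myeloma cell markers summed to between 4400 and 8440 CPM, against 136 to 904 CPM in the other MM libraries and 87.6 to 138 CPM in SHAM libraries. MM5 and MM9 also had the lowest median correlation with the other libraries, 0.928 and 0.940, while the remaining 16 libraries lay between 0.956 and 0.983. In SHAM6 the 4 globins summed to 2930 CPM, which was 39.4% of the sum over the SHAM group. Neuron and glia markers, which define the tissue, were present in every library, and the markers Avil, Prph and Pou4f1 did not pass the test between the groups.

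RNA of 6 of 6 genes was lower in MM ganglia than in SHAM ganglia, by between 2.70 and 3.01 on the log2 scale. In the edgeR test 2.99% of 15774 genes changed in either direction and 38 genes, or 0.241%, fell. The falls of these 6 were the 6 largest by fold, but the 6 were chosen with earlier results of these data known. Their place is thus not that of an unselected set. The count of 38 depended on the libraries and the test: it ran from 9 (without MM5, for one) to 139 (without SHAM6) with 1 library left out, and was 256 with DESeq2 and 1 with the replicate number as a block. In 9 of 9 MM libraries each of the 6 genes lay below the SHAM median. The share of all tested genes with this trait was not taken. Kit, Tmcc2 and Scn10a, which did not pass, also lay below it in 9 of 9 MM libraries. In CPM, Hba-a1, Hbb-bt and Alas2 showed no overlap between the groups. Of all tested genes, 0.0254%, or 4 genes, had every MM library below every SHAM library. The paralog sums, which do not depend on the split of reads, did overlap through MM5 and SHAM2. MM5 held 129 CPM of the alpha pair against 128 CPM in SHAM2, and 123 against 104 CPM of the beta pair. For all 4 globins the values were 252 CPM in MM5 and 232 CPM in SHAM2. The median log2 fold change over all tested genes was -0.004.

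**Figure D1:**
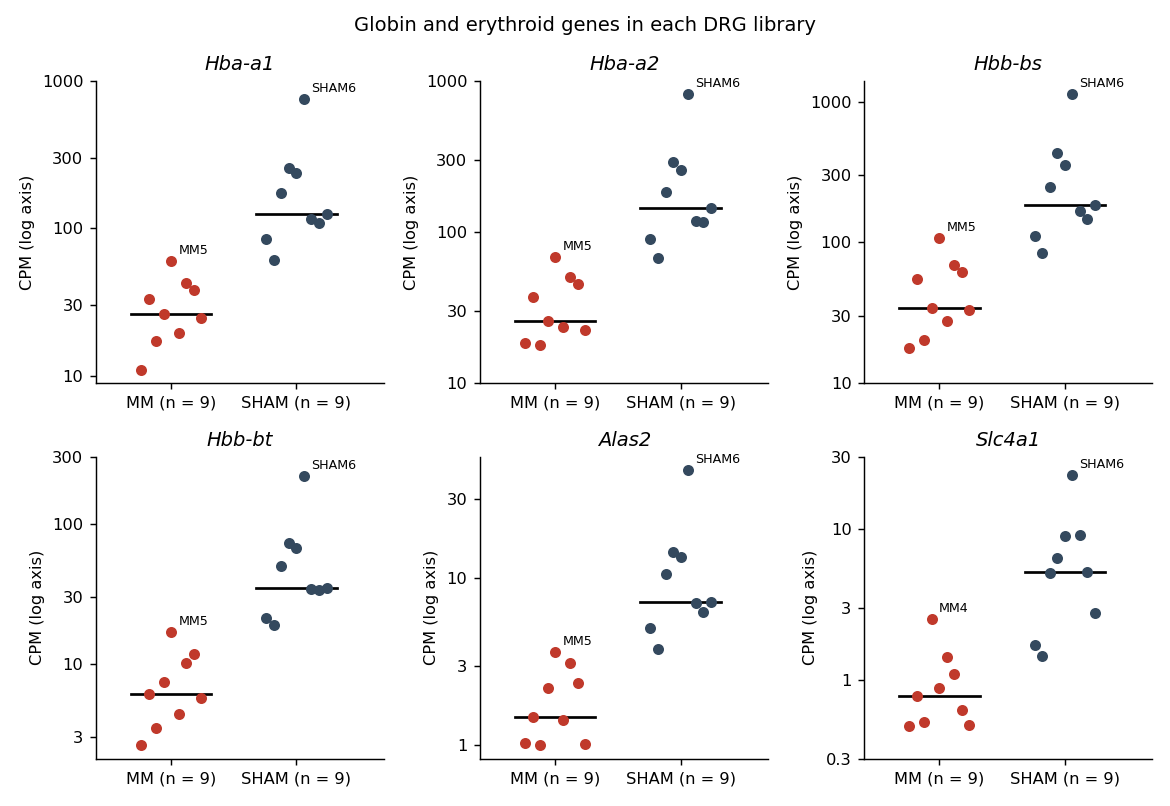
CPM on a log axis for each of the 6 genes, with 1 point per library, MM on the left and SHAM on the right; horizontal lines are group medians and the highest library of each group is named. The MM points lie below the SHAM points for Hba-a1, Hbb-bt and Alas2, overlap narrowly for Hba-a2, Hbb-bs and Slc4a1, and SHAM6 is highest in each panel.

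The alpha globins encode the chains that pair with beta chains in adult haemoglobin. Hba-a1 ranged from 11 to 60.3 CPM in MM libraries with a median of 26.3, and from 60.7 to 752 CPM in SHAM libraries with a median of 126. The highest MM library, MM5, thus reached almost the level of the lowest SHAM library, SHAM2, and the ranges only just missed each other. Hba-a1 averaged 30.3 ± 15.1 CPM in MM ganglia and 213 ± 213 CPM in SHAM ganglia (SD, n = 9 each), a log2 fold change of -2.81 ± 0.46 (SE; edgeR adjusted p = 0.00711).

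Hba-a2, its paralog, ranged from 17.8 to 68.5 CPM in MM libraries with a median of 25.8, and from 67.4 to 816 CPM in SHAM libraries with a median of 144. Here MM5 stood just above SHAM2, and the other 8 MM libraries lay below every SHAM library. The means were 34.3 ± 17.4 CPM in MM ganglia and 232 ± 232 CPM in SHAM ganglia (SD, n = 9 each), with a log2 fold change of -2.75 ± 0.45 (SE; edgeR adjusted p = 0.00711).

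Hbb-bs, the more abundant of the adult beta globins here, ranged from 17.9 to 107 CPM in MM libraries with a median of 34.4, and from 84.8 to 1140 CPM in SHAM libraries with a median of 184. As with Hba-a2, only MM5 among MM libraries exceeded the lowest SHAM library. Its means were 47.3 ± 28.8 CPM in MM ganglia and 318 ± 328 CPM in SHAM ganglia (SD, n = 9 each), with a log2 fold change of -2.75 ± 0.50 (SE; edgeR adjusted p = 0.0111).

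Hbb-bt, the minor beta globin here, ranged from 2.61 to 16.8 CPM in MM libraries with a median of 6.11, and from 18.9 to 217 CPM in SHAM libraries with a median of 34.6. The groups did not overlap, and MM5 and SHAM2 were again the neighbours across the gap. The log2 fold change was -3.01 ± 0.48 (SE; edgeR adjusted p = 0.00681), from means of 7.59 ± 4.54 CPM in MM ganglia and 61.1 ± 61.5 CPM in SHAM ganglia (SD, n = 9 each).

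Alas2, the erythroid form of the enzyme that begins haem synthesis, ranged from 1.0 to 3.63 CPM in MM libraries with a median of 1.48, and from 3.76 to 44.4 CPM in SHAM libraries with a median of 7.23. Its CPM did not overlap between the groups. The means were 1.91 ± 0.969 CPM in MM ganglia and 12.5 ± 12.5 CPM in SHAM ganglia (SD, n = 9 each), with a log2 fold change of -2.70 ± 0.45 (SE; edgeR adjusted p = 0.00711). In deposited TPM, which also corrects for transcript length, MM4 at 5.50 lay above SHAM2 at 5.01, so the lack of overlap holds for CPM only. Of the TPM in MM4, 1.84 and 1.889 lay on short Alas2 transcripts of 485 and 569 bases, from 4.49 and 6.31 reads. In SHAM2 these transcripts held 0.427 and 0.931 TPM. In the authors' deposited table of normalized values, mean Alas2 was 5.18 times as high in SHAM as in MM, against 6.52 times for CPM. That ratio was between 6.82 and 8.15 in the authors' deposited table for the other 5 genes.

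Slc4a1, band 3 of the red cell membrane, had the lowest reads of the 6, between 10 and 52 per MM library and between 29 and 471 per SHAM library. It ranged from 0.49 to 2.54 CPM in MM libraries with a median of 0.788, and from 1.45 to 22.6 CPM in SHAM libraries with a median of 5.14. MM4, not MM5, was the highest MM library, and it lay above SHAM1 and SHAM2. The log2 fold change was -2.82 ± 0.50 (SE; edgeR adjusted p = 0.00998), from means of 0.987 ± 0.658 CPM in MM ganglia and 7.02 ± 6.46 CPM in SHAM ganglia (SD, n = 9 each).

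Spread was wide within each group. The sum of the 4 globins averaged 120 ± 65.4 CPM in MM ganglia and 824 ± 834 CPM in SHAM ganglia (SD, n = 9 each), with 5.05 times between the lowest and highest MM library and 12.6 times between the lowest and highest SHAM library. Without SHAM6 the SHAM mean was 562 ± 292 CPM, and the log2 fold changes of the 6 genes lay between -2.45 and -2.15, with edgeR adjusted p between 0.00962 and 0.0127. Without SHAM4, SHAM5 and SHAM6, the 3 SHAM libraries with most globin RNA and left out because of it, they lay between -2.08 and -1.73 with edgeR adjusted p between 0.0574 and 0.0624, so 0 of 6 passed. In that fit 0 genes passed in either direction, with 3932 genes at an unadjusted p under 0.05. Without MM5, MM8 and MM9 the falls of Hbb-bs, Alas2 and Slc4a1 did not pass, at log2 fold changes of -3.10, -2.88 and -2.62 and edgeR adjusted p of 0.0619, 0.0549 and 0.122.

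Levels of different genes can be set side by side per length only, in the deposited TPM values. By group mean the order was the same in both groups: Hbb-bs, Hba-a2, Hba-a1, Hbb-bt, Alas2, Slc4a1. Hbb-bs averaged 220 ± 124 TPM in MM and 1570 ± 1580 TPM in SHAM, and Slc4a1, at the other end, averaged 0.384 ± 0.279 TPM in MM and 2.75 ± 2.52 TPM in SHAM (SD, n = 9 each). The place of Hbb-bs above Hba-a2 held in 6 of 9 MM libraries and 7 of 9 SHAM libraries, so these neighbours are not separated. Each of the other 4 steps of the order held in 9 of 9 MM and 9 of 9 SHAM libraries. The step from Hba-a2 to Hba-a1 rests on the uncertain split of reads and on main mRNAs of 554 and 699 bases. In estimated reads, not divided by length, the Hba-a1 to Hba-a2 ratio was 1.02 in MM4 and 1.10 in MM9. The order of these paralogs is therefore uncertain. Hba-a1 stood above Hbb-bt by a median of 5.26 times in MM and 4.25 times in SHAM.

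GENCODE M21 annotates 1 Hba-a1 transcript in the files as retaining an intron. It received a median of 27.5% of Hba-a1 reads in MM libraries, with a range of 16.2% to 35.3%, and 24.2% in SHAM libraries, with a range of 16.1% to 28.6%. The ranges overlapped throughout most of their width. This transcript shares 93.3% of its stretches of 31 bases with the matching Hba-a2 transcript, so its share rests on the estimate's split between the paralogs.

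The proportions among the 6 genes were compared between the groups as 5 ratios of estimated reads, each tested 2-sided by exact permutation over the 48620 ways of assigning the libraries, with Benjamini-Hochberg adjustment over the 5. The balance of alpha to beta globin reads had a median of 1.23 in MM, range 1.04 to 1.47, and 1.21 in SHAM, range 1.10 to 1.30 (mean log2 difference 0.05, exact permutation p = 0.461, adjusted 0.576). No difference in this balance was detected, and the SHAM range lay inside the MM range. Hba-a1 to Hba-a2 had a median of 0.880 in MM and 0.923 in SHAM (mean log2 difference -0.08, exact permutation p = 0.435, adjusted 0.576). MM values of this ratio ran from 0.602 in MM1 to 1.10 in MM9 and covered the whole SHAM range of 0.871 to 0.989.

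Hbb-bt to Hbb-bs was the ratio that passed. Its median was 0.160 in MM, range 0.110 to 0.218, and 0.191 in SHAM, range 0.170 to 0.226, with a mean log2 difference of -0.29 (exact permutation p = 0.0058, adjusted 0.0290). The minor beta globin therefore made up a smaller part of beta globin reads in MM, although the ranges overlapped and MM4 reached 0.218. When each library was left out in turn the difference stayed between -0.35 and -0.22, and it passed in 9 of 18 repeats, with adjusted exact p from 0.00247 to 0.0666. The call was lost without MM1, MM2, MM5, MM6, MM7, SHAM2, SHAM3, SHAM7 or SHAM8. Both genes share reads, and MM libraries held 53 to 360 Hbb-bt reads against 376 to 4536 in SHAM libraries; the part of that depth in the ratio was not tested.

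Alas2 had a median of 17.3 reads per 1000 globin reads in MM, range 11.6 to 23.4, and 15.4 in SHAM, range 13.8 to 16.5 (mean log2 difference 0.09, exact permutation p = 0.441, adjusted 0.576). Slc4a1 had a median of 6.53 reads per 1000 globin reads in MM, range 3.60 to 27.3, and 7.73 in SHAM, range 5.65 to 20.8 (mean log2 difference -0.01, exact permutation p = 0.985, adjusted 0.985). Both mean differences were smaller than the SD of the log2 ratio within MM, 0.34 for Alas2 and 0.96 for Slc4a1. The highest Slc4a1 ratio of the MM group was in MM4 and that of the SHAM group in SHAM7.

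**Figure D2:**
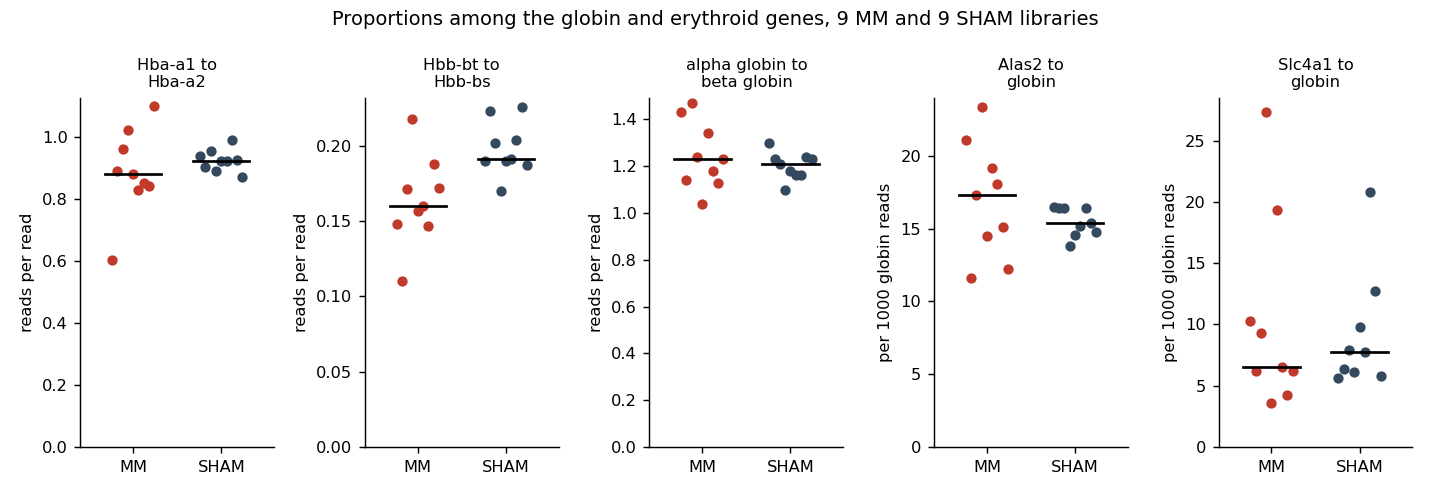
Ratios of estimated reads by library, MM on the left and SHAM on the right of each panel, with group medians as lines; the first 3 panels are reads per read and the last 2 are reads per 1000 globin reads, and each axis starts at 0. MM points are more spread than SHAM points in the Hba-a1 to Hba-a2, alpha to beta and Alas2 panels, and the MM median of Hbb-bt to Hbb-bs, 0.160, lies below every SHAM value.

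Within each group, libraries with more globin RNA also had more Alas2. On log2 CPM, Alas2 and the globin sum had Pearson r = 0.89 over 9 MM libraries (exact permutation p = 0.00215, adjusted 0.00616 over 10 relations; Spearman rho 0.90, exact p = 0.00203, adjusted 0.0101). Over 9 SHAM libraries r was 1.0 when rounded (exact permutation p = 2.76e-06, adjusted 2.76e-05), and the order of the libraries was the same for both measures (rho 1.0, exact p = 5.51e-06, adjusted 5.51e-05). Leaving out SHAM4 and SHAM6 kept r at 1.0, and leaving out MM1 and MM5 gave r = 0.80 in MM, which no longer passed (exact permutation p = 0.0391, adjusted 0.0782).

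Slc4a1 rose with the globins across SHAM libraries, where r was 0.87 (exact permutation p = 0.00246, adjusted 0.00616; rho 0.73, exact p = 0.0311, adjusted 0.0778), and 0.77 without SHAM4 and SHAM6 (adjusted exact p = 0.0782). In MM libraries r was 0.21 (exact permutation p = 0.596, adjusted 0.745; rho 0.45, exact p = 0.230, adjusted 0.383), and 0.05 without MM1 and MM5. The difference between the groups in this relation was not tested. MM4 and MM6, with 52 and 30 Slc4a1 reads, held the highest Slc4a1 of the MM group, but lay at or below the median of the group in globin RNA (93.9 and 74.9 CPM). At 10 to 52 reads per MM library, counting error is a sizeable part of the Slc4a1 values.

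**Figure D3:**
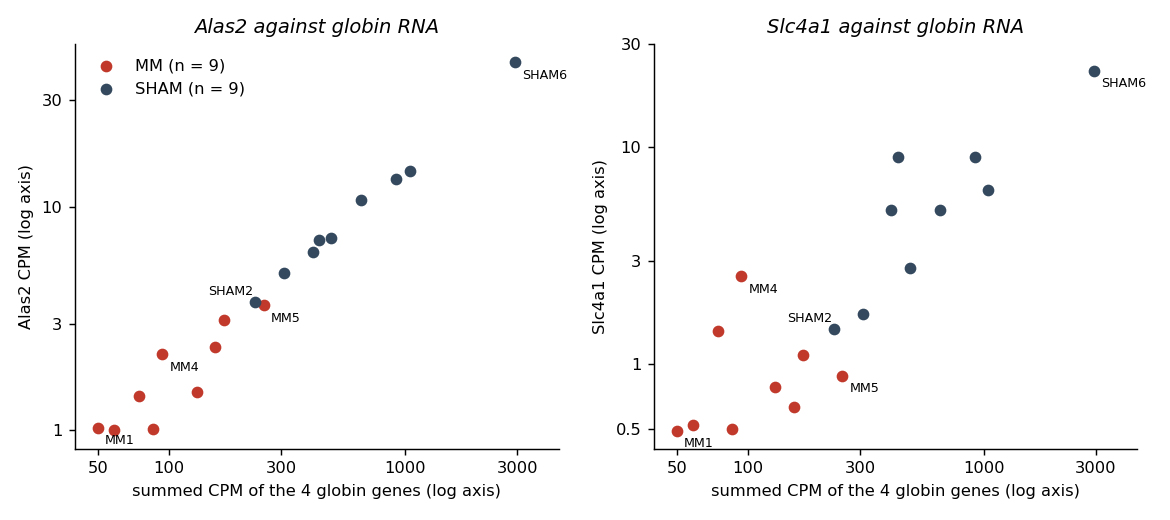
Alas2 (left) and Slc4a1 (right) CPM against the summed CPM of the 4 globins, both axes logarithmic, with 1 point per library, MM and SHAM in separate colours and a few libraries named. Alas2 points rise with the globin sum in both groups, while MM4 stands off the Slc4a1 trend and SHAM6 lies at the upper end of both panels.

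Markers of other cells were put to the same comparison. Ighg2b, the immunoglobulin heavy chain that follows the inoculated cells, had r = 0.07 with the globin sum in MM (exact permutation p = 0.864, adjusted 0.960; rho 0.08, exact p = 0.843, adjusted 0.937) and -0.23 without MM1 and MM5. In SHAM its r was 0.01 (exact permutation p = 0.974, adjusted 0.974; rho 0.22, exact p = 0.581, adjusted 0.726), and 0.59 without SHAM4 and SHAM6. The libraries richest in myeloma transcripts lay on both sides of the MM median of 93.9 CPM in globin sum, at 252 CPM in MM5, 157 CPM in MM8 and 86.0 CPM in MM9.

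S100a8, a calprotectin subunit of blood neutrophils, had r = 0.89 with the globins in SHAM (exact permutation p = 0.00132, adjusted 0.00616; rho 0.77, exact p = 0.0214, adjusted 0.0713), and 0.78 without SHAM4 and SHAM6 (adjusted exact p = 0.0782). In MM its r was 0.23 (exact permutation p = 0.548, adjusted 0.745; rho 0.03, exact p = 0.948, adjusted 0.948), and it turned to -0.81 without MM1 and MM5 (adjusted exact p = 0.0782). Cdh5, the endothelial cadherin, had r = 0.69 in MM (exact permutation p = 0.0372, adjusted 0.0621; rho 0.63, exact p = 0.0760, adjusted 0.152), and 0.64 without MM1 and MM5. In SHAM its r was 0.74 (exact permutation p = 0.0221, adjusted 0.0442; rho 0.42, exact p = 0.270, adjusted 0.385), but -0.15 without SHAM4 and SHAM6, so that relation rests on those 2 libraries.

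Over all 18 libraries, with each group centred on its own mean, 13793 genes of at least 1 CPM were ranked by their correlation with the globin sum, as a description with no test. Alas2 ranked first at r = 0.96, whereas Slc4a1 had rank 373 at r = 0.67. After Alas2, the 10 next genes not among the 6 were Tns2, Unc119b, Mxd4, Nme3, Zfp276, Klf4, Slc2a1, F3, Kctd12 and Prss23. Their r lay between 0.88 and 0.83, and between 0.74 and 0.83 without SHAM6. Slc2a1, the glucose transporter of the blood-tissue barrier and, in humans, of red cells, had r = 0.84, and averaged 77.6 ± 15.6 CPM in MM ganglia and 64.6 ± 10.6 CPM in SHAM ganglia (log2 fold change 0.26 ± 0.12 SE; edgeR adjusted p = 0.191). Klf4, a transcription factor of vessel walls and myeloid cells, had r = 0.86 and had a log2 fold change of 0.18 ± 0.37 (SE; edgeR adjusted p = 0.799). Alas2 fell between the groups, while 0 of these 10 genes passed. All points share their libraries, depth and scaling, so a high r is no sign of common control.

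The wider erythroid programme was read from 5 lists, which hold 61 genes. Of the 43 that could be tested, 29 had a negative log2 fold change against 51.1% negative among all genes tested, and 1 fell, against 0.241%. It was Slc25a37, mitoferrin 1, which imports iron into mitochondria for haem synthesis. It averaged 18.9 ± 1.53 CPM in MM ganglia and 22.5 ± 2.37 CPM in SHAM ganglia, a log2 fold change of -0.25 ± 0.06 (SE; edgeR adjusted p = 0.0466). That call was lost with no filter (edgeR adjusted p = 0.0643) and in all but 6 of 18 fits with 1 library left out (log2 fold change -0.28 to -0.21; edgeR adjusted p = 0.0384 to 0.0920). None of the 43 rose, against 2.75% of all genes tested.

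In the haem synthesis list 12 of 12 genes were tested, the median log2 fold change was -0.03 and 1 fell. Alas1, the form of the first enzyme used outside the red lineage, averaged 45.7 CPM in MM and 48.4 CPM in SHAM (log2 fold change -0.08 ± 0.04 SE; edgeR adjusted p = 0.278), beside the fall of Alas2. Fech, which inserts iron into the ring, averaged 68.0 CPM in MM and 74.7 CPM in SHAM (log2 fold change -0.14 ± 0.05 SE; edgeR adjusted p = 0.159). These enzymes are used by all cells that make haem.

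Among late erythroid and reticulocyte genes 12 of 15 were tested and 0 passed, with a median of -0.06. Tmcc2 averaged 76.9 ± 5.41 CPM in MM ganglia and 88.2 ± 7.97 CPM in SHAM ganglia (log2 fold change -0.20 ± 0.06 SE; edgeR adjusted p = 0.0568). Bpgm, which makes the 2,3-bisphosphoglycerate that lowers oxygen affinity of haemoglobin, ranged from 13.6 to 17.6 CPM in MM and from 17.1 to 29.7 CPM in SHAM (log2 fold change -0.33 ± 0.10 SE; edgeR adjusted p = 0.0665). Its highest SHAM value, 29.7 CPM, was in SHAM6. Car2, a carbonic anhydrase that also serves neurons and glia, averaged 58.8 CPM in MM and 72.9 CPM in SHAM (log2 fold change -0.31 ± 0.13 SE; edgeR adjusted p = 0.176).

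Of the red cell membrane list 8 of 16 genes were tested and 0 passed (median -0.16). Ank1, the erythrocyte ankyrin, averaged 466 CPM in MM and 557 CPM in SHAM, and Add2, beta adducin, averaged 405 CPM in MM and 455 CPM in SHAM (edgeR adjusted p = 0.184 and 0.183). With groups centred, their r with the globin sum was -0.62 and -0.57, beside -0.57 for the neuron marker Avil. In this list 6 of 8 tested genes had a negative r and 2 a positive r. Which cells of the ganglion these transcripts came from was not tested, so they are no clear measure of red cells. Of 11 erythroid transcription factors 6 were tested and 0 passed (median -0.10); Nfe2 averaged 0.544 CPM in MM and 0.818 CPM in SHAM (log2 fold change -0.58 ± 0.45 SE; edgeR adjusted p = 0.444), with 2.63 CPM in SHAM6. Of receptors and iron uptake genes 5 of 7 were tested and 0 passed (median -0.03); the stem cell factor receptor Kit averaged 80.7 CPM in MM and 92.3 CPM in SHAM (log2 fold change -0.19 ± 0.06 SE; edgeR adjusted p = 0.0988).

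**Figure D4:**
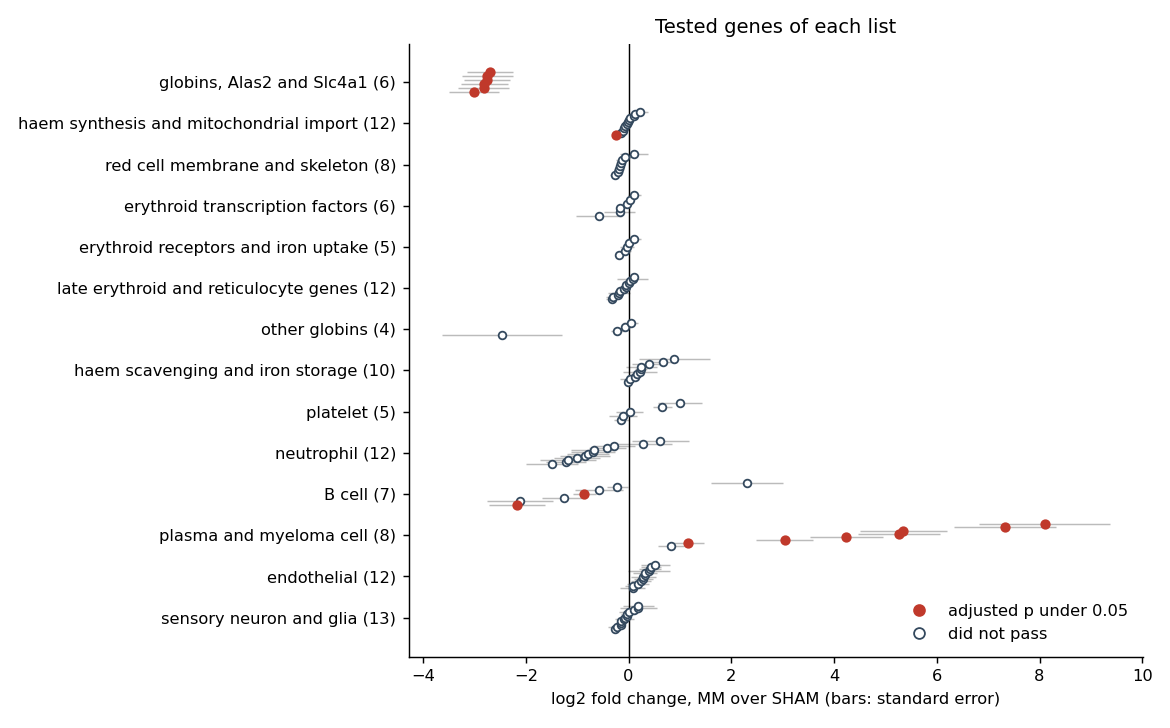
Log2 fold change of MM over SHAM for every tested gene of 14 gene groups, with standard errors as bars, filled points where the adjusted p was under 0.05 and open points otherwise; the number tested stands in brackets. The 6 globin and erythroid genes form a separate cluster between -3.01 and -2.70, while tested genes of the 5 erythroid lists gather near 0. A further 17 of the 61 genes in those lists were under the filter and are not shown.

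Of the 61 genes of the 5 erythroid lists, 17 had too few reads to pass the filter, and 16 of those 17 had fewer reads in MM than in SHAM. The same share over all genes under the filter was not taken, so 16 of 17 stands without a comparison. Hemgn, a nuclear regulator of red cell precursors, had 19 reads over 9 MM libraries and 162 over 9 SHAM libraries, and Trim10, a ubiquitin ligase of terminal erythroid cells, had 27 in MM and 175 in SHAM. The membrane skeleton protein Epb42 (28 in MM, 130 in SHAM) and the Rh-associated glycoprotein Rhag (13 in MM, 77 in SHAM) went the same way. The regulator Klf1 had 17 reads in MM and 65 in SHAM, whereas Gata1 had 21 in MM and 24 in SHAM. Erfe, a hormone of erythroblasts that lowers hepcidin, was the exception among the 17, with 23 in MM and 11 in SHAM. A large part of some SHAM sums came from SHAM6. Klf1 stood at 1.58 CPM in SHAM6, against a mean of 0.202 CPM in the rest of SHAM and 0.0907 CPM in MM. For Hemgn these values were 2.4, 0.69 and 0.102 CPM, and for Trim10 they were 2.63, 0.739 and 0.144 CPM.

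These genes were tested only in the edgeR fit with no filter, over 30729 genes, where 20 genes or 0.0651% fell. There 5 of the 17 fell, among them Hemgn (log2 fold change -3.05 ± 0.61 SE, edgeR adjusted p = 0.0234), Trim10 (-2.68 ± 0.60, 0.0372), Epb42 (-2.21 ± 0.51, 0.0395) and Rhag (-2.50 ± 0.60, 0.0458). These 4 are named for their values in this fit and not by the rule for named genes. Their log2 fold changes ran from -3.05 to -2.21, beside -3.01 to -2.70 for the 6 genes above. For Gata1 the log2 fold change was -0.23 ± 0.58 (edgeR adjusted p = 0.852), and for Klf1 it was -1.91 ± 0.64 (edgeR adjusted p = 0.149). Mean counts of a few reads per library leave wide errors on all of these, and the fit with no filter was not repeated without SHAM6.

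**Figure D5:**
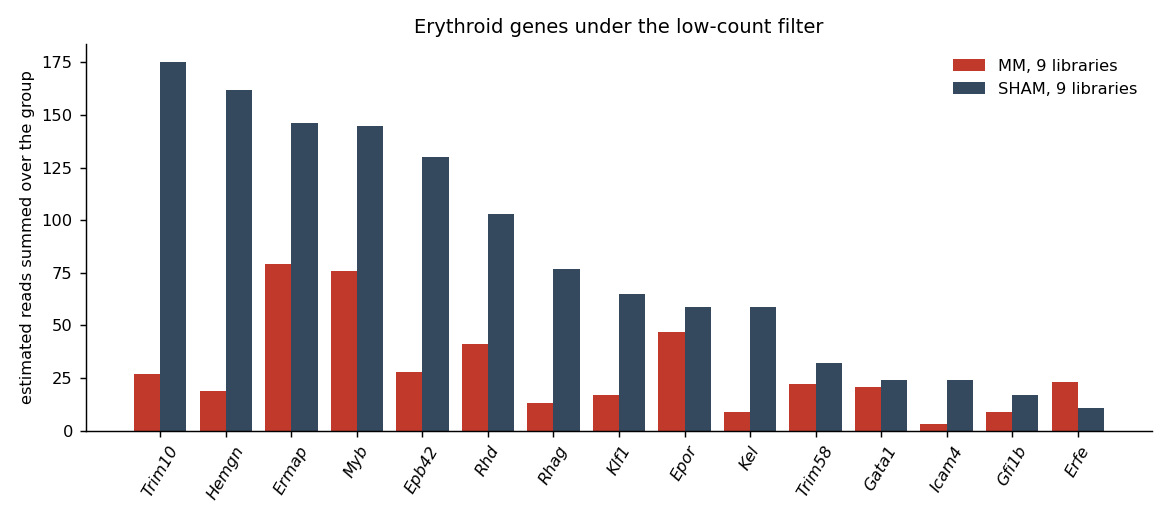
Estimated reads summed over the 9 MM libraries (left bar of each pair) and the 9 SHAM libraries (right bar) for 15 erythroid genes under the low-count filter, ordered by SHAM reads; the axis starts at 0. The MM bar is lower for 14 of the 15, from 27 against 175 for Trim10 to 21 against 24 for Gata1, and higher for Erfe.

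Other members of the globin family did not pass. Hbb-bh1 and Hbb-bh2 had 0 reads in 18 libraries, for which 3 reads per library is the limit, and the embryonic Hbb-y and Hba-x had 2 and 1 reads in MM and 0 in SHAM. Cygb, the cytoglobin of fibroblast-like cells, averaged 59.4 ± 6.12 CPM in MM ganglia and 62.2 ± 4.54 CPM in SHAM ganglia (log2 fold change -0.07 ± 0.06 SE; edgeR adjusted p = 0.516). Ngb, the neuronal globin, averaged 4.37 ± 0.942 CPM in MM ganglia and 5.10 ± 0.891 CPM in SHAM ganglia (log2 fold change -0.22 ± 0.13 SE; edgeR adjusted p = 0.334). Mb, the muscle globin, varied from 0.0957 to 11.1 CPM in MM and from 0 to 51.2 CPM in SHAM (log2 fold change -2.46 ± 1.17 SE; edgeR adjusted p = 0.222). Of the 4 globins of this list that were tested 0 passed, and their difference from the adult globins was not itself tested.

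In the list of haem scavenging and iron storage 10 of 12 genes were tested and 0 passed, with 9 of 10 positive and a median of 0.23. Hmox1, which breaks down haem, averaged 39.8 ± 25.6 CPM in MM ganglia and 24.9 ± 5.27 CPM in SHAM ganglia (log2 fold change 0.68 ± 0.27 SE; edgeR adjusted p = 0.159). Ftl1, the ferritin light chain, averaged 545 ± 131 CPM in MM ganglia and 462 ± 70.0 CPM in SHAM ganglia (log2 fold change 0.24 ± 0.12 SE; edgeR adjusted p = 0.243). Spic, a transcription factor of iron-recycling macrophages, was under the filter with 92 reads in MM and 18 in SHAM. In the fit with no filter, where 1.02% of genes rose, it rose with a log2 fold change of 2.23 ± 0.49 (SE; edgeR adjusted p = 0.0331); it too was picked out after its values were seen.

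Markers of other blood cells were read beside the red cell genes. Of 12 neutrophil genes 0 passed, with 10 of 12 negative and a median of -0.74. Their sum ranged from 26.6 to 140 CPM in MM with a median of 60.9, and from 29.0 to 346 CPM in SHAM with a median of 85.8, and the 346 was in SHAM6. Mmp8, a granule collagenase, averaged 2.14 ± 0.882 CPM in MM ganglia and 4.99 ± 3.68 CPM in SHAM ganglia (log2 fold change -1.22 ± 0.39 SE; edgeR adjusted p = 0.0881). Retnlg and S100a9 had log2 fold changes of -1.49 ± 0.51 and -1.0 ± 0.45 (SE; edgeR adjusted p = 0.107 and 0.202).

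Of 7 B cell genes tested 2 fell, against 0.241% of all genes tested. Among them Cd79a, of the B cell receptor, averaged 2.17 ± 0.633 CPM in MM ganglia and 3.94 ± 1.80 CPM in SHAM ganglia (log2 fold change -0.86 ± 0.23 SE; edgeR adjusted p = 0.0490). Its call was lost with no filter (edgeR adjusted p = 0.0566) and held in 3 of 18 fits with 1 library left out (edgeR adjusted p = 0.0486 to 0.101). Cd79b pointed the other way, at 2.31 ± 0.70 (SE; edgeR adjusted p = 0.0730), and the B cell sum ran from 3.45 to 30.2 CPM in MM and from 5.62 to 22.9 CPM in SHAM. Of 8 plasma and myeloma cell genes tested 7 rose, against 2.75% of all genes tested.

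Among platelet genes 5 of 13 were tested and 0 passed, with a median of 0.02 and sums of 23.1 to 43.2 CPM in MM and 22.4 to 33.7 CPM in SHAM. Itga2b, the platelet integrin chain, averaged 5.51 ± 1.96 CPM in MM ganglia and 3.49 ± 0.728 CPM in SHAM ganglia (log2 fold change 0.66 ± 0.19 SE; edgeR adjusted p = 0.0690). Pf4, platelet factor 4, averaged 3.95 ± 3.94 CPM in MM ganglia and 1.97 ± 0.521 CPM in SHAM ganglia (log2 fold change 1.0 ± 0.43 SE; edgeR adjusted p = 0.181). Only 2 T and NK cell genes could be tested, Lck and Cd4, and neither passed (edgeR adjusted p = 0.202 and 0.434).

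Among vessel cell markers, 0 of 12 endothelial genes passed, 12 of 12 had a positive log2 fold change and the median was 0.31; their sum was 142 to 496 CPM in MM, median 234, and 154 to 343 CPM in SHAM, median 189. Esam and Pecam1, adhesion molecules of endothelial cells, had log2 fold changes of 0.32 ± 0.12 and 0.44 ± 0.19 (SE; edgeR adjusted p = 0.132 and 0.189). Of 10 pericyte and smooth muscle genes 0 passed (median -0.13), of 13 neuron and glia genes 0 passed (median -0.07; Scn10a, the nociceptor sodium channel, -0.27 ± 0.07 SE, edgeR adjusted p = 0.0535), and of 11 hypoxia response genes 0 passed (median 0.09). The part that blood content, vessel content or these marker lists have in the lower globin RNA was not tested.

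Within the groups, the same lists differed in how they moved with globin RNA. With groups centred, 12 of 12 neutrophil genes, 12 of 12 endothelial genes and 7 of 7 B cell genes had a positive r with the globin sum, with medians of 0.65, 0.60 and 0.39. Neutrophil genes had a median r of 0.25 within MM and 0.85 within SHAM; endothelial genes had 0.68 within MM and 0.56 within SHAM. The median over all 15774 tested genes was -0.03. Neuron and glia genes had a median of -0.35, with the lowest r at -0.66 for Scn10a. Erythroid-list medians were -0.54 for the membrane list, -0.41 for receptors and iron uptake, -0.02 for haem synthesis, 0.03 for late erythroid genes and 0.44 for the transcription factors, against 0.96 for Alas2. These r are descriptions over shared libraries and carry no test.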

How the data were processed

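The authors sequenced total RNA on DNBSEQ through a service provider, per the labels, and quantified it with Salmon 1.5.2, with GRCm39 as the build, per the submitters' processing notes; index and options are not given in the sources used here. The deposited estimated counts of reads per transcript were not scaled by the authors. The deposited TPM values are the authors' length-scaled values. The deposited normalized signal per gene was made by the authors, with DESeq2 named in the submitters' processing notes.

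Estimated counts were summed per gene through GENCODE M21 (GRCm38) by transcript number and rounded. Of 137562 transcripts, 3620 had no gene there and held 0.8504% to 1.339% of reads per library; late erythroid Ahsp was not linked. No position on GRCm39 is given. Depth limits genes of a few reads per library.

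After filterByExpr and TMM scaling, edgeR 4.0.16 (R 4.3.3) gave robust quasi-likelihood tests with group alone in the model, Benjamini-Hochberg adjusted p under 0.05. The script was tested on simulated data. Alternatives used limma 3.58.1 and DESeq2 1.42.0; exact tests and plots used Python 3.11.15, scipy 1.17.1 and matplotlib 3.10.9. Log2 CPM used a prior count of 2, and 0.5 was added to each sum of a ratio. Nothing says how the 9 samples of a group were raised or processed beyond 1 mouse each, so p-values measure the spread between these samples.

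The 6 genes and the 16 other lists were chosen with earlier results of these data known. Named genes are the 6, up to 3 per list by lowest p, every list gene that passed up to 6, the 10 most like the globin sum, and Ighg2b, Cdh5 and S100a8; others were chosen after their values were seen. Some results are not reported here.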

Additional observations from a re-analysis of the deposited data

Results flagged for a closer look

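In SHAM6 each of the 6 genes stood apart from the other 8 SHAM libraries by Dixon's test on CPM. The test was not run on log2 CPM, where high values lie closer to the rest, so the flags hold for the CPM scale only. Hba-a1 reached 752 CPM there, Hba-a2 816 CPM, Hbb-bs 1140 CPM, Hbb-bt 217 CPM, Alas2 44.4 CPM and Slc4a1 22.6 CPM, where the next SHAM library held 259 CPM of Hba-a1 and 14.5 CPM of Alas2. SHAM6 also had the highest SHAM sums of the neutrophil list (346 CPM), the B cell list (22.9 CPM) and the endothelial list (343 CPM). Its part in the results was measured by leaving it out, as given with the results.

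In MM4, Slc4a1 stood apart from the other MM libraries at 2.54 CPM, while the 4 globins there summed to 93.9 CPM, the median of the group. This flag was also taken on CPM. Chance alone flags about 1 in 20 groups where values are normally spread, which was not checked for CPM. The 6 genes share their libraries, so the flags in SHAM6 are not independent of each other.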

How the results depend on the processing

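Under 31 alternative settings the 6 genes gave 184 log2 fold changes, of which 184 were negative and 167 passed. With each library left out in turn, every one of the 6 passed in 18 of 18 fits, with log2 fold changes from -3.00 to -2.27 (Hba-a1), -2.94 to -2.21 (Hba-a2), -3.00 to -2.19 (Hbb-bs), -3.25 to -2.45 (Hbb-bt), -2.87 to -2.15 (Alas2) and -3.13 to -2.36 (Slc4a1). Same-numbered MM and SHAM libraries correlated between -0.32 and 0.263, with 2 of 9 over 0.1 and 2 of 9 best with their own number. The labels name no pairing, and these correlations cannot show whether same-numbered libraries shared a batch or day. With the replicate number as a block, 8 genes passed, and Hba-a1 (-2.51, edgeR adjusted p = 0.0699), Hba-a2 (-2.43, 0.0834), Hbb-bs (-2.46, 0.116), Hbb-bt (-2.74, 0.0590) and Alas2 (-2.40, 0.0613) did not, while Slc4a1 did (-2.60, 0.0230); the Hbb-bt to Hbb-bs difference stayed at -0.29 (adjusted exact permutation p = 0.137). Without SHAM4, SHAM5 and SHAM6, an alternative chosen after seeing the data, the values were -1.88, -1.80, -1.73, -2.07, -1.80 and -2.08 in the order Hba-a1, Hba-a2, Hbb-bs, Hbb-bt, Alas2, Slc4a1, and 0 genes passed. Without MM5, MM8 and MM9, Hbb-bs (-3.10), Alas2 (-2.88) and Slc4a1 (-2.62) did not pass. With voom quality weights Alas2 (-2.26, adjusted p = 0.0585) and Slc4a1 (-2.15, 0.0899) did not, nor did Slc4a1 with limma on log2(TPM + 1) (-1.23, 0.0521). The main count of 471 genes past the threshold became 1201 with DESeq2, 113 and 39 with limma on log2(TPM + 0.1) and log2(TPM + 1), 48 with voom weights, 35 without SHAM7 and SHAM8, 60 without MM5, MM8 and MM9, and 84 to 1014 with 1 library left out: over 1.5 times more without MM1 (760), MM2 (1014) or SHAM6 (732), and fewer by that margin without MM5 (84), MM8 (104), MM9 (121) or any SHAM library other than SHAM6 (120 to 287). The Slc4a1 to globin difference became 0.96 (adjusted exact permutation p = 0.0278) in TPM with 0.5 added, which exceeds Slc4a1 itself in most MM libraries, and -0.05 with nothing added, chosen after seeing the data; it ran from -0.22 to 0.16 with libraries left out. The Hbb-bt to Hbb-bs difference ran from -0.35 to -0.22. Without the 2 libraries farthest from the median, relations with the globin sum became 0.80 (Alas2, MM), 0.77 (Slc4a1, SHAM), 0.78 (S100a8, SHAM), -0.23 (Ighg2b, MM), -0.15 (Cdh5, SHAM) and -0.81 (S100a8, MM). The cause of these changes was not tested, beyond fewer samples where libraries were left out.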
